A study of Homo sapiens with 2 samples.

Results

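Chromatin accessibility at the 10 desmosome genes DSP, DSC2, DSC3, DSG2, DSG3, JUP, PKP1, PKP2, PKP3 and PERP was compared between 2 ATAC-seq libraries of SUM159 cells. The genes were taken by name, 10 of 19955 protein-coding genes, and a peak belonged to a gene if it lay in the gene body or within 20 kb of any GENCODE transcript start in hg38. On chromosomes 1 to 22 and X the No gRNA list had 67868 peaks, of which 28 fell in these windows, and the All gRNA list had 68238, of which 32 did, and no peak lay in the windows of more than 1 member. SUM159 is an established triple negative breast cancer cell line with mesenchymal features. Both populations were transduced with pLV-KRAB, a lentiviral vector for dCas9-KRAB, a Cas9 without cutting activity joined to a repressor domain. The No gRNA cells had no targeting guide (empty vector control) and the All gRNA cells had 4 guides to the promoter of ZEB1, a repressor of epithelial genes that binds E-box sequences such as CAGGTG. With 1 library per condition no test between the conditions could be made, and intervals cover counting error only.

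Desmosomes are adhesive junctions that tie the intermediate filaments of neighbouring epithelial cells together. Their transmembrane cadherins, the desmogleins (DSG) and desmocollins (DSC), bind across the gap between cells, and on the inside they hold plakoglobin (JUP) and the plakophilins (PKP), which in turn bind desmoplakin (DSP), the link to the filaments. Epithelial cells lose desmosomes when they take on a mesenchymal state. Open chromatin is cut by the Tn5 transposase, so a peak marks a site where many cut ends pile up.

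The height of a peak is given here as its summit pileup, the number of read ends that the authors' peak caller stacked at the summit, recovered from the deposited fold and p. The All gRNA library had 0.743 times the depth of the No gRNA library, so heights were compared as the ratio of All gRNA to No gRNA after scaling for depth, with a 95% interval. Across the 48041 peaks of the genome with exactly 1 partner in the other list, the median ratio was 0.928, or −0.11 on the log2 scale, and 58.1% were below 1. Of the 7 mesenchymal markers checked, 7 had a peak within 1000 bp of the main start in No gRNA and 6 in All gRNA, the exception being ZEB1, with 2 peaks in No gRNA and 0 in All gRNA. Of the 7 epithelial markers, 0 had such a peak in either library.

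Of 25 peaks with exactly 1 partner, the ratio interval lay above 1 at 1 and below 1 at 3, where 3.42% and 8.85% of all pairs did so. More peaks were called in All gRNA alone than in No gRNA alone, in shares whose intervals overlap. The All gRNA share was near that of all All gRNA peaks. Among the 28 No gRNA peaks 25 were shared, that is, overlapped a peak of the other list, and 3 were not (10.7%, exact interval 2.27 to 28.2), where 24.7% of all No gRNA peaks had no partner. In All gRNA 25 of 32 peaks were shared and 7 were not (21.9%, 9.28 to 40.0), against 23.8% of all All gRNA peaks. The No gRNA peaks had a median pileup of 34 and covered 11594 bp of the 714655 bp in the windows, and the All gRNA peaks had a median pileup of 20.5 and covered 13283 bp. Pooled over the 10 genes, this was 16.2 and 18.6 bp per kb. The median of single protein-coding genes was 16.8 and 15.1, a different measure, so members cannot be placed above or below the typical gene by it. In No gRNA 14 peaks lay in introns, 6 in exons and 8 between protein-coding genes, and in All gRNA the numbers were 16, 6 and 10.

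**Figure D1:**
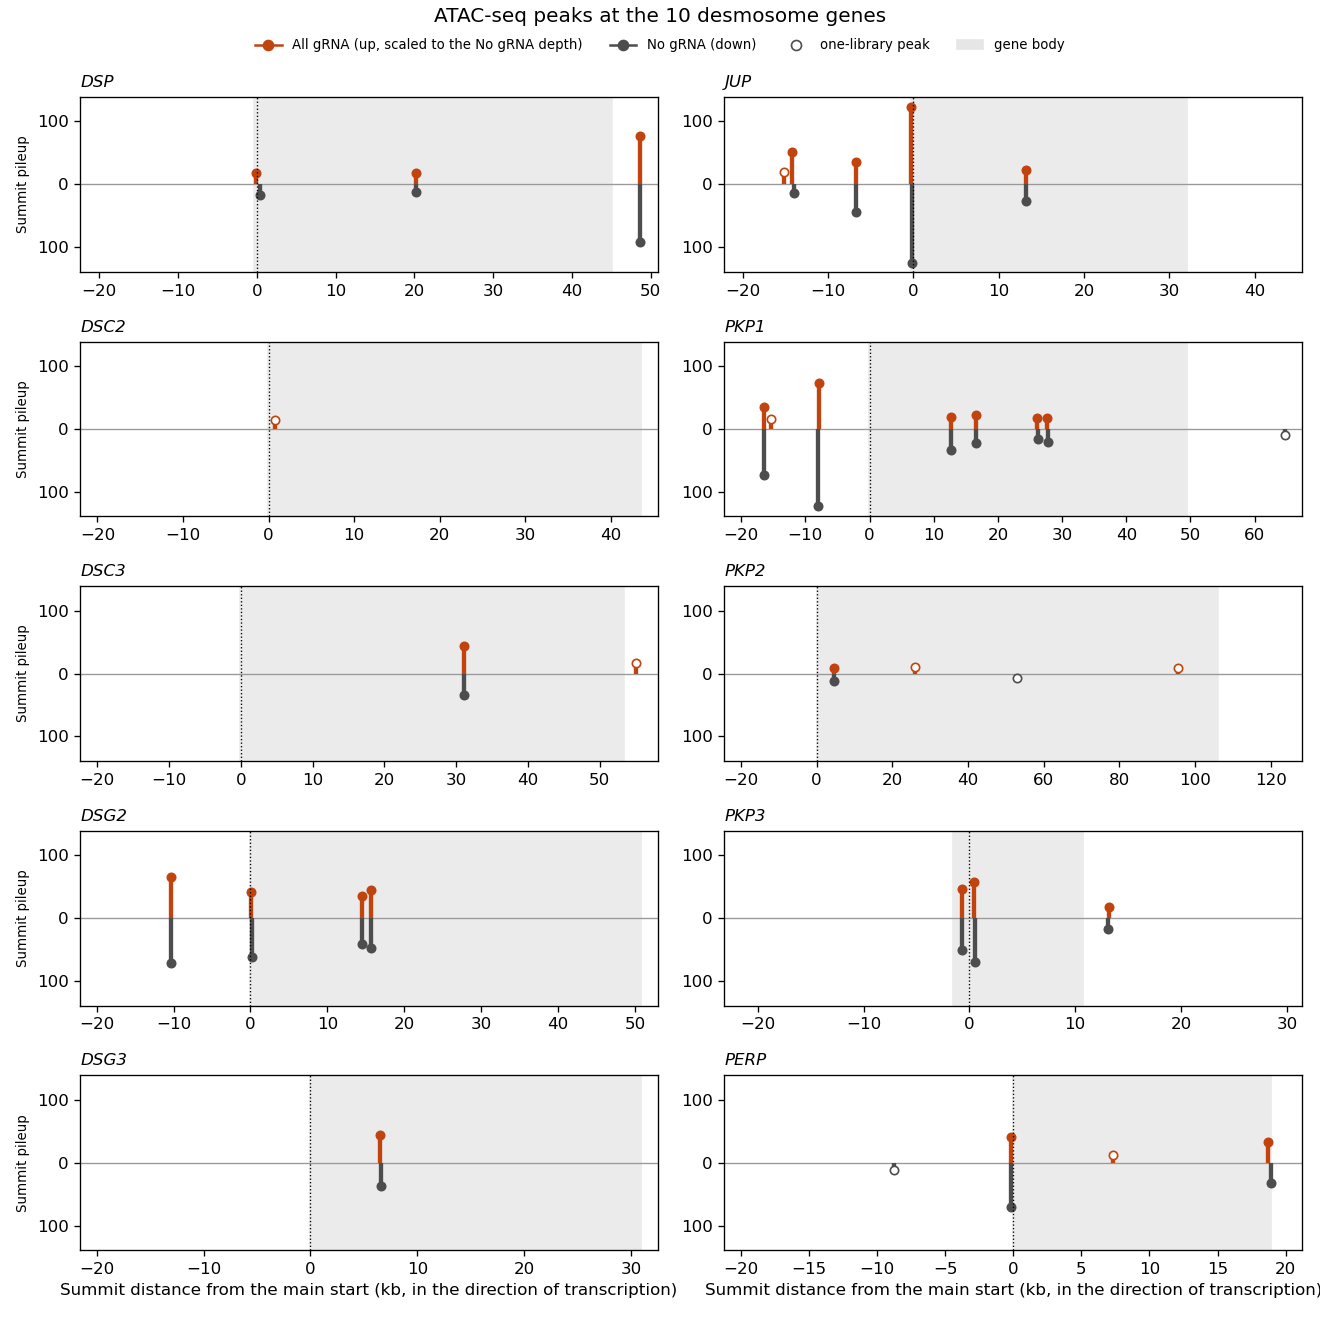
Peaks at each gene by distance of the summit from the main start (kb, in the direction of transcription), with summit pileup upward for All gRNA (scaled to the No gRNA depth) and downward for No gRNA, the gene body in grey and open circles for peaks called in 1 library. The strongest peaks lie at the JUP start and upstream of PKP1, and DSC2 has a single, open circle in All gRNA.

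At the main start, that of the Ensembl canonical transcript, 5 genes (DSP, DSG2, JUP, PKP3 and PERP) had a peak within 1000 bp in both libraries, which was the case for 60.3% of protein-coding genes. DSC2 was the 1 member with such a peak in All gRNA only, a state found at 1.43% of genes. No member had one in No gRNA only, found at 2.62% of genes. The other 4 members, DSC3, DSG3, PKP1 and PKP2, had a peak at the main start in neither library, as did 35.6% of genes. Both libraries thus had an open promoter at the linker, at plakoglobin, at 1 plakophilin, at 1 desmoglein and at PERP. Neither had one at DSC3, DSG3, PKP1 or PKP2.

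Length covered by peaks was longer in All gRNA at 6 genes and shorter at 4. Of the 18025 protein-coding genes with a peak in their window, 33% were longer and 66.8% shorter. It went from 0 to 289 bp at DSC2, from 518 to 840 bp at DSC3, from 1918 to 2979 bp at JUP, from 418 to 653 bp at PKP2, from 1170 to 1583 bp at PKP3 and from 1477 to 1559 bp at DSP. It went down from 1979 to 1650 bp at DSG2, from 488 to 312 bp at DSG3, from 2232 to 2133 bp at PKP1 and from 1394 to 1285 bp at PERP. JUP had the largest difference among the 10 members, and that at DSP was the smallest. At DSC2, DSC3, JUP and PKP2, but not at PKP3 and DSP, the longer length included at least 1 peak called in All gRNA alone. At DSC2 such a peak was all of it.

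**Figure D2:**
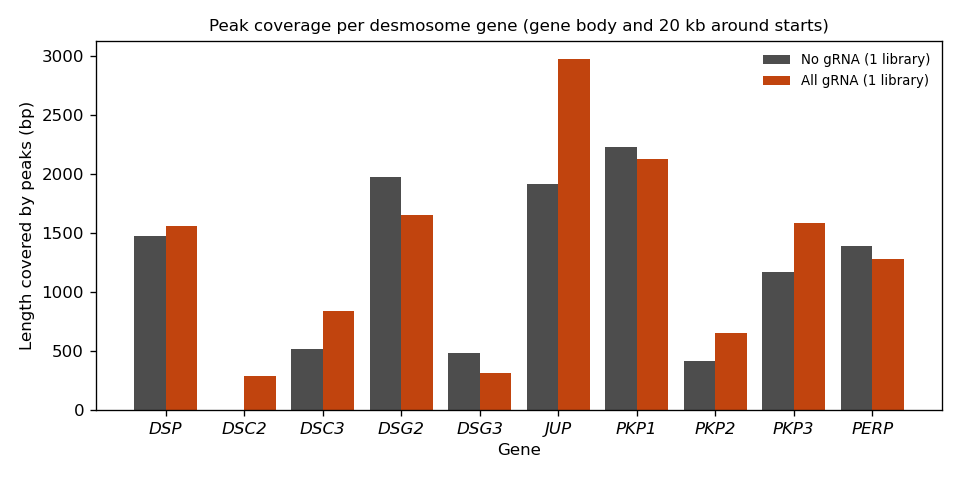
Length covered by peaks (bp) in the window of each gene, with 1 bar per library. Bars are longer in All gRNA at DSP, DSC2, DSC3, JUP, PKP2 and PKP3, and DSC2 has 0 bp in No gRNA.

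Heights could be compared at 25 shared peaks, each with exactly 1 partner. The median ratio was 0.897, and 17 peaks were lower and 8 higher in All gRNA. Scaled instead so that the median of all 48041 pairs is 1, 14 were lower and 11 higher, so the split between sides depends on the scaling. The interval lay above 1 at 1 peak, upstream of JUP, where 3.42% of all pairs did so, and below 1 at 3 peaks, upstream of PKP1 and at the PERP promoter, where 8.85% of all pairs did so. These 4 calls held under the other scaling. Summed over the 25 peaks, the pileup was 1158 without and 746 with the guides, which gave a ratio of 0.867 (0.790 to 0.951) after scaling for depth and of 0.934 (0.851 to 1.03), with an interval that includes 1, under median scaling.

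**Figure D3:**
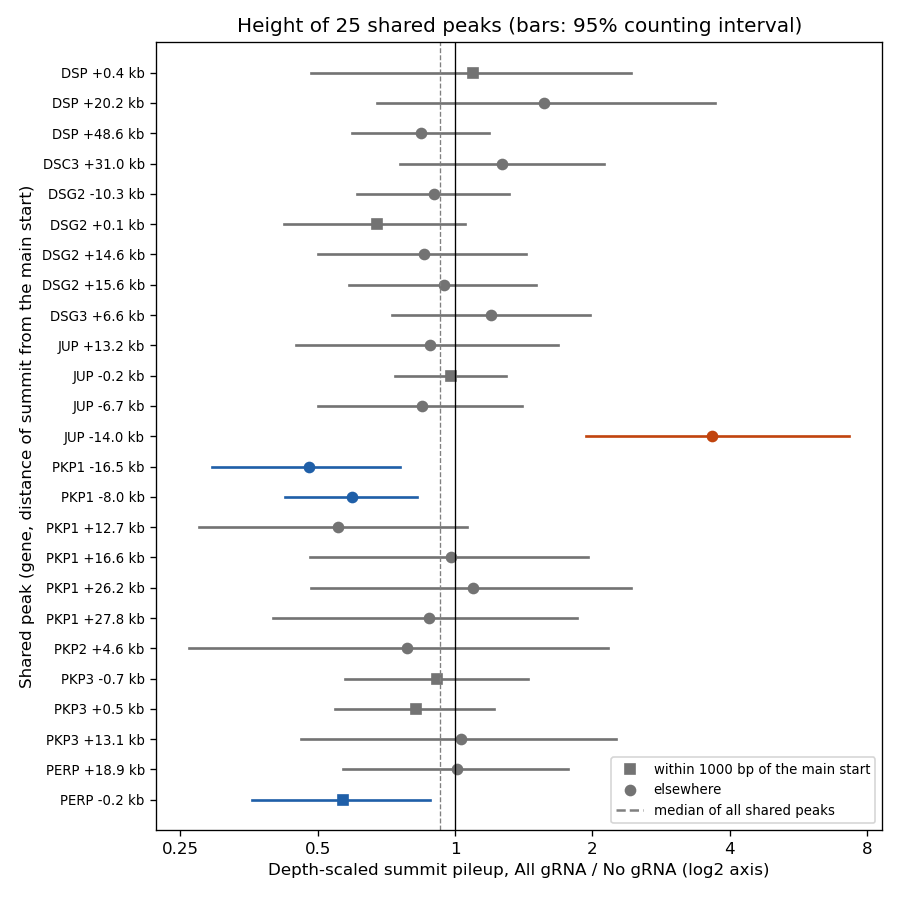
Depth-scaled ratio of summit pileup, All gRNA over No gRNA, at the 25 shared peaks on a log2 axis, with 95% counting intervals, squares for peaks within 1000 bp of the main start and a dashed line at the median of all shared peaks. The JUP peak 14 kb upstream stands above 1 at 3.65, and 3 peaks in blue, at PKP1 and PERP, lie below 1.

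DSP encodes desmoplakin, the plakin that anchors the filaments. The gene (ENSG00000096696.16) lies on the plus strand of chromosome 6, from 7541338 to 7586714, and a start of the antisense RNA DSP-AS1 lies within 1000 bp of its promoter peak. The promoter peak, at 7541353 to 7542197 in No gRNA and 7541411 to 7542214 in All gRNA, was broad and low, with pileups of 16 and 13 and a ratio of 1.09 (0.484 to 2.42). The peak stayed near one width, 845 and 804 bp, but the summit lay 375 bp downstream of the main start in No gRNA and 120 bp upstream of it in All gRNA. That shift of 495 bp was the largest of the 25 pairs, whose median was 44 bp. In a low peak the summit rests on few read ends. An intronic peak at 7561756 to 7561988, 20241 bp into the gene, had pileups of 12 and 14, a ratio of 1.57 (0.674 to 3.72). The strongest peak in the window, with pileups of 91 and 57 and a ratio of 0.843 (0.594 to 1.19), lay in the first 1000 bp around the start of the neighbouring gene SNRNP48 (chromosome 6, 7590081 to 7590520).

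No height difference at DSP was thus larger than counting error. The 250 bases before the RefSeq start of DSP (GRCh38.p14, chr6:7541421-7541670, plus strand) are shown because the All gRNA summit lay within them and they hold the E-box CAGGTG at 2 places, in capitals, at positions −178 and −85 (first base of the motif, with the base of the start as 0).
DSP: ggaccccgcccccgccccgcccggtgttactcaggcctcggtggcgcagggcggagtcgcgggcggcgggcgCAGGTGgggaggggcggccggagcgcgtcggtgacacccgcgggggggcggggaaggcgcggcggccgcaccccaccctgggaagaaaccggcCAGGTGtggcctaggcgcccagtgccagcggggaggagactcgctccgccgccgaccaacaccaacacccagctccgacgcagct

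DSC2 and DSC3 encode desmocollins. DSC2, the desmocollin found in most desmosome-bearing tissues, spans chromosome 18, 31058840 to 31102522, on the minus strand (ENSG00000134755.18). It had 0 peaks in No gRNA and 1 in All gRNA, at 31101538 to 31101826, with its summit in an intron 710 bp downstream of the main start. The peak had a pileup of 11, a fold of 7.32 over the local background and a −log10 q of 8.72, which placed it at the 44.2 percentile of its list. Scaled to the depth of No gRNA, this pileup corresponds to 14.8 (7.39 to 26.5), against a call limit of 5. The call limit is computed as the smallest pileup whose Poisson p, at such a background, reaches that of the weakest peak in the other list. The nearest No gRNA peak was 89650 bp away. The summit window also overlaps an exon of the long non-coding RNA DSCAS, whose start lies within 1000 bp of the peak, so the peak is not particular to DSC2 by position.

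The 201 bases around this summit (hg38, chr18:31101611-31101811, minus strand) are shown as the site of the one promoter called in 1 library. Of the 4 motifs searched, CAGGTG, the comparison E-box CAGCTG, the AP-1 motif TGANTCA and the GRHL motif AACNGGTT, it held none on either strand, so no base is in capitals. The 250 bases before a RefSeq start of DSC2 (GRCh38.p14, chr18:31102422-31102671, minus strand), outside the peak, hold CAGGTG once, in capitals, at position −156. The bases at another RefSeq start of DSC2 (chr18:31101211-31101510), also outside the peak but nearer to it, hold CAGGTG 0 times.
DSC2 All gRNA peak: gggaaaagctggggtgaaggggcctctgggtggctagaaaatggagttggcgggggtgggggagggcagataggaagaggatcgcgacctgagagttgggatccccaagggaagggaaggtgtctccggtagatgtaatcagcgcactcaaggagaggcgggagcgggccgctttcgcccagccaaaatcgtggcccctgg
DSC2: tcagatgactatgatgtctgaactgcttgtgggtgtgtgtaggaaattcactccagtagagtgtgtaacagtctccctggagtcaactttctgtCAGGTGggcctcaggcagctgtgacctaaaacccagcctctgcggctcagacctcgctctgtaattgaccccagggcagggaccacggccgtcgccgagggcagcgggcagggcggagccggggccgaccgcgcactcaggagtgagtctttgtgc

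At DSC3 (chromosome 18, 30989365 to 31042815, minus strand), the strongest peak lay in an intron 31040 bp downstream of the main start, at 31011370 to 31011887. Its pileups were 34 and 32, a ratio of 1.27 (0.757 to 2.12), and its width went from 518 to 605 bp. A second peak, called in All gRNA only, lay past the 3′ end of the gene at 30987560 to 30987794, with a pileup of 12 and a −log10 q of 11.4. Scaled to the No gRNA depth it would reach 16.1 (8.34 to 28.2) against a call limit of 5. This was the strongest of the 7 one-library All gRNA peaks by −log10 q and the only peak of the 10 genes with the GRHL motif within 100 bp of its summit, and it also held CAGGTG and TGANTCA.

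DSG2 and DSG3 encode desmogleins. DSG2, the desmoglein of simple epithelia and heart, spans chromosome 18, 31498177 to 31549008, on the plus strand (ENSG00000046604.14) and had 4 peaks in each library, all shared. The promoter peak, at 31497989 to 31498758 in No gRNA and 31498080 to 31498599 in All gRNA, had pileups of 62 and 31, a ratio of 0.673 (0.422 to 1.05) with an interval that reaches past 1. It narrowed from 770 to 520 bp, and 5.05% of all pairs narrowed by as much. The read ends in the 10 kb around it, counted from the local background where this was recorded, numbered 120 and 62. This was a depth-scaled ratio of 0.695 (0.503 to 0.952), where the median over 37144 pairs was 0.913. Such counts include the read ends of the peak itself, so they are not separate from its height. The strongest DSG2 peak lay 10296 bp upstream, at 31487545 to 31488067, with pileups of 72 and 48 and a ratio of 0.897 (0.609 to 1.31). Intronic peaks 14563 and 15642 bp downstream had ratios of 0.853 (0.501 to 1.43) and 0.945 (0.586 to 1.51), the latter turning to 1.02 under median scaling.

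The 250 bases before the RefSeq start of DSG2 (GRCh38.p14, chr18:31497927-31498176, plus strand) are shown because the promoter peak of both libraries reaches into them. They hold 2 E-boxes, in capitals, CAGGTG at position −232 and its reverse complement CACCTG at −116. The No gRNA peak contains only that at −116, and the All gRNA peak contains neither.
DSG2: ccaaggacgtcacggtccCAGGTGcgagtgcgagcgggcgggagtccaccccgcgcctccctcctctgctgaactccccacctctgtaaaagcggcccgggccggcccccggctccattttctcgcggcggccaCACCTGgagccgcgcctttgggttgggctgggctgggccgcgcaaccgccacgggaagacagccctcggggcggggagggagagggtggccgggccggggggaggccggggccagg

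DSG3, the pemphigus vulgaris antigen, lies on the plus strand of chromosome 18, from 31447741 to 31478702. It had 1 peak, in an intron 6617 bp downstream of its start at 31454188 to 31454675. The pileups were 37 and 33, a ratio of 1.20 (0.727 to 1.97), while the width went from 488 to 312 bp. The desmogleins and desmocollins share 1 cluster on chromosome 18, from DSC3 at 30989365 to the end of DSG2 at 31549008. Across its 7 genes No gRNA had 12 peaks over 4914 bp, 2 of them one-library, and All gRNA had 11 over 4351 bp, 1 of them one-library. These bounds leave out the All gRNA only peak of DSC3 at 30987560 to 30987794, which is part of the DSC3 length given above. The cluster and gene lengths are thus not counted over the same stretch. Within the cluster bounds the covered length was shorter in All gRNA, unlike at DSC2 and DSC3 in their own windows.

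JUP encodes plakoglobin, the armadillo protein that binds the cadherin tails and is also found at adherens junctions. It spans chromosome 17, 41754604 to 41786931, on the minus strand (ENSG00000173801.17). Its promoter peak, at 41786521 to 41787169 in No gRNA and 41786446 to 41787202 in All gRNA, was the strongest of the 10 genes in All gRNA, where its pileup was 91, and also had the highest pileup in No gRNA, 125. The ratio was 0.980 (0.739 to 1.29), or 1.06 under median scaling, and the width went from 649 to 757 bp. An intronic peak 13229 bp downstream had pileups of 26 and 17, a ratio of 0.880 (0.448 to 1.68), and a peak 6702 bp upstream had 43 and 27, a ratio of 0.845 (0.502 to 1.40).

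The largest difference among the 25 pairs lay further upstream of JUP. A peak at 41800682 to 41800916 in No gRNA had a pileup of 14, a width of 235 bp and a −log10 q of 8.12. In All gRNA the peak at the same place, 41800618 to 41801471, had a pileup of 38, a width of 854 bp and a −log10 q of 33.5. The All gRNA value was higher even before scaling, and the depth-scaled ratio was 3.65 (1.93 to 7.30), or 3.94 (2.08 to 7.86) under median scaling. Of all 48041 pairs, 0.192% had a ratio as high, and of the 16302 pairs with a mean scaled pileup within 1.5 times of its own 0.294% did. The peak widened by 619 bp, as much as 3 of the 48041 pairs did. The read ends in the surrounding 10 kb, with the peak included, went from 70 to 92, a ratio of 1.77 (1.28 to 2.45). The rise of the peak is part of this count, so the ratio does not describe its surroundings alone. A further peak called in All gRNA only, at 41801730 to 41801940 with a pileup of 15 and a −log10 q of 7.49, would reach 20.2 (11.3 to 33.3) at the No gRNA depth against a call limit of 9. It lay 813 bp from the nearest No gRNA peak.

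This region is between protein-coding genes, with the No gRNA summit at −14033 bp from the main JUP start. The main start of P3H4, at 11205 bp, is nearer. No link of the region to either gene was measured. The 201 bases around the All gRNA summit (hg38, chr17:41800776-41800976, minus strand) are shown as the site of the largest ratio of the 25 pairs. They hold CAGGTG once, in capitals, and its nearest base lies 1 bp from the summit. The one-library peak beside it held CAGGTG at 2 places within 100 bp of its summit.
JUP upstream peak: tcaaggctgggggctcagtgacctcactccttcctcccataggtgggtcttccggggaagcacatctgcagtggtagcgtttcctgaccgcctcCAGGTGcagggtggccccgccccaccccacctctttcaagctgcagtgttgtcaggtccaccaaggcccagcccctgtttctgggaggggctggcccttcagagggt

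PKP1, PKP2 and PKP3 encode the plakophilins, armadillo proteins that cluster the cadherins and bind desmoplakin. PKP1, the plakophilin of suprabasal epidermis, spans chromosome 1, 201283452 to 201332993, on the plus strand (ENSG00000081277.13), had no peak at its main start and 7 peaks in each library. Its strongest peaks lay upstream, and both were lower in All gRNA. The peak 8012 bp upstream, at 201275296 to 201275790, had the highest −log10 q of the 28 No gRNA peaks, 130.0, and its pileup went from 122 to 54, a ratio of 0.596 (0.424 to 0.827). The peak 16490 bp upstream, at 201266841 to 201267187, went from 73 to 26, a ratio of 0.479 (0.294 to 0.759). Of all pairs, 10.6% and 3.57% had ratios as low, and of pairs within 1.5 times in mean pileup 6.10% and 2.72%. In the surrounding 10 kb, with the peak included, the read ends went from 195 to 86 at the nearer peak, a ratio of 0.593 (0.455 to 0.769). At the farther one they went from 125 to 74, a ratio of 0.797 (0.589 to 1.07).

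The number of PKP1 peaks was the same in both libraries. A peak called in All gRNA only lay 903 bp from the farther of those peaks, at 201268091 to 201268290, with a pileup of 12 and a −log10 q of 5.86, or 16.1 (8.34 to 28.2) at the No gRNA depth against a call limit of 8. Of the 4 intronic peaks, that 12659 bp downstream had pileups of 34 and 14, a ratio of 0.554 (0.275 to 1.06), and the others had ratios of 0.979, 1.09 and 0.875 with intervals that include 1. The ratio of 0.979 became 1.05 under median scaling. The No gRNA only peak, at 201348226 to 201348429 with a pileup of 10 and a −log10 q of 7.55, lay beyond the 3′ end of the gene and would have 7.43 (3.56 to 13.7) at the All gRNA depth against a call limit of 4.

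The 201 bases around the No gRNA summits of the upstream peaks (hg38, plus strand, chr1:201266916-201267116 and chr1:201275394-201275594) are shown as sites whose ratio interval lay below 1. Each holds TGANTCA once, and the nearer peak also holds CAGCTG. Both motifs are in capitals, and neither window holds CAGGTG.
PKP1 16 kb upstream: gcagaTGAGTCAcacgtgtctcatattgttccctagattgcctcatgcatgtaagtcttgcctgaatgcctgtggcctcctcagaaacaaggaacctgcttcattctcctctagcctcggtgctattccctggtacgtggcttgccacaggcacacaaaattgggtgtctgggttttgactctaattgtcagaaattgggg
PKP1 8 kb upstream: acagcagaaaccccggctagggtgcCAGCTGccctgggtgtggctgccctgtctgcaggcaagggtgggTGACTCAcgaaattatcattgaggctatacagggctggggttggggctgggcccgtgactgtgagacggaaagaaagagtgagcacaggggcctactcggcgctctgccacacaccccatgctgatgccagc

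PKP2, the plakophilin of simple epithelia and heart, spans chromosome 12, 32790745 to 32896798, on the minus strand (ENSG00000057294.18), and had the weakest peaks among the plakophilins. Its 1 shared peak, in an intron 4638 bp downstream at 32892063 to 32892280, had pileups of 12 and 7, a ratio of 0.785 (0.262 to 2.16). The other peaks, all intronic, were called in 1 library. That of No gRNA, at 32843626 to 32843825, had a pileup of 7. The stronger of those in All gRNA by −log10 q (6.17), at 32870823 to 32871055, had a pileup of 8, and the other had 7. Scaled to the other library, the lower bounds of these 3 peaks were below the call limits of 4 and 5. Their absence there was not tested.

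PKP3, a plakophilin of most epithelia, spans chromosome 11, 392614 to 404908, on the plus strand (ENSG00000184363.10). It had 2 peaks at the main start in each library. The one upstream, at 393333 to 393595, had pileups of 50 and 34, a ratio of 0.915 (0.574 to 1.44). The one downstream, at 394539 to 394852 in No gRNA and 394014 to 394890 in All gRNA, had pileups of 69 and 42, a ratio of 0.819 (0.544 to 1.22). It was not higher in All gRNA but wider, from 314 to 877 bp, as much as 8 of the 48041 pairs widened. The remaining PKP3 peak, at 407138 to 407730 near a start of the gene SIGIRR, had pileups of 17 and 13, a ratio of 1.03 (0.460 to 2.25).

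PERP encodes a tetraspan membrane protein of desmosomes that is also a p53 target. It spans chromosome 6, 138088505 to 138107419, on the minus strand (ENSG00000112378.12). Its promoter peak, at 138107129 to 138107794 in No gRNA and 138107119 to 138107776 in All gRNA, had pileups of 71 and 30, a ratio of 0.569 (0.358 to 0.883). It was the only 1 of the 6 promoter peaks shared between the libraries whose interval excluded 1, and with a 99% interval (0.310 to 1.002) it did not. Its width hardly moved, 666 and 658 bp, and 8.53% of all pairs had a ratio as low. The read ends in the surrounding 10 kb, with the peak included, went from 146 to 66, a ratio of 0.608 (0.448 to 0.819). The peak at the 3′ end of the gene, 18893 bp downstream, had pileups of 32 and 24, a ratio of 1.01 (0.569 to 1.77). A No gRNA only peak at 138116082 to 138116309, 8758 bp upstream, had a pileup of 11 and a −log10 q of 8.77. An All gRNA only peak at 138099966 to 138100199, in an intron, had a pileup of 9 and a −log10 q of 7.42.

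The 201 bases around the No gRNA summit of the PERP promoter (hg38, chr6:138107481-138107681, minus strand) hold TGANTCA once, in capitals, and none of the other motifs.
PERP promoter: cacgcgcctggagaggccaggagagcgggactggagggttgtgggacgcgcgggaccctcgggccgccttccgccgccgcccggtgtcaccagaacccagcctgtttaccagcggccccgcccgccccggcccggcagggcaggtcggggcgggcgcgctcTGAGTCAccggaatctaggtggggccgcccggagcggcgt

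Among the promoters of the 10 genes, therefore, All gRNA had a lower peak at PERP, values below 1 with intervals that include 1 at DSG2 and both PKP3 peaks, ratios near 1 at JUP and DSP, and a peak of its own at DSC2. Widths moved in both directions. Of the 25 pairs, 10 were wider and 15 narrower in All gRNA, with a median change of −12 bp, against −23 bp and 38.2% wider over all pairs.

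**Figure D4:**
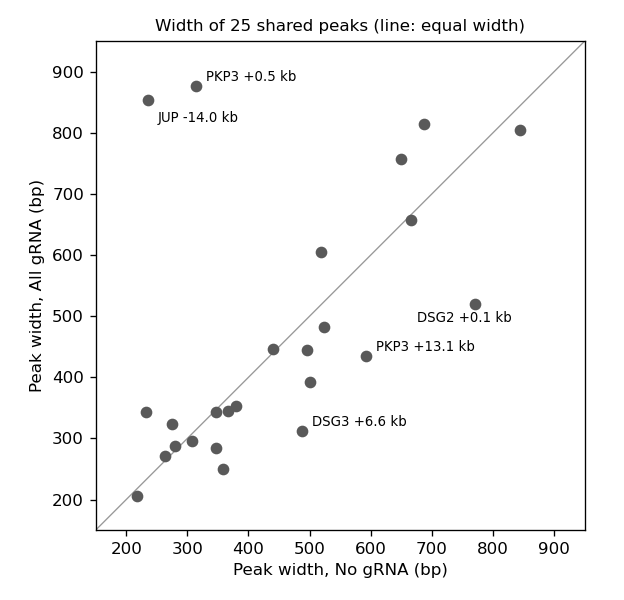
Width (bp) of the 25 shared peaks in No gRNA (horizontal) and All gRNA (vertical), with the line of equal width and labels on peaks that changed by 150 bp or more. The upstream JUP peak (235 to 854 bp) and the PKP3 promoter peak (314 to 877 bp) stand above the others, and DSG2 (770 to 520 bp) lies below the line.

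The one-library peaks were weak. Their pileups ran from 7 to 15 in the 7 All gRNA peaks (DSC2, DSC3, JUP, PKP1, 2 at PKP2 and PERP) and from 7 to 11 in the 3 No gRNA peaks (PKP1, PKP2 and PERP), and none was above the 54.2 percentile of its list by −log10 q. The lower bound of the scaled pileup was above the call limit of the other library for 5 of the 7 and for 1 of the 3, the latter at PERP. These peaks were taken because only 1 list called them, and the bound leaves out counting error in the other library. It is therefore no test of their absence there, and the share over all one-library peaks was not counted. When peaks needed a −log10 q of 10 to be counted, 1 All gRNA only peak, that of DSC3, and 0 No gRNA only peaks were left.

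Motifs were counted on both strands within 100 bp of the summit. CAGGTG was found at 6 of 28 No gRNA peaks (21.4%, 8.30 to 41.0), where 11.6% of all No gRNA peaks had it, and at 9 of 32 All gRNA peaks (28.1%, 13.7 to 46.7), where 13.1% of all did. Anywhere in the peak it was found at 11 of 28 (39.3%, 21.5 to 59.4) and 10 of 32 (31.2%, 16.1 to 50.01), against 23.3% of all peaks in each list, so the order of the libraries depended on the window. In the All gRNA list the peaks with CAGGTG within 100 bp of the summit belonged to DSP, DSC3, JUP, PKP1 and PKP3. Of those in the DSP window, 1 lies at the start of SNRNP48. CAGCTG was at 21.4% and 15.6% of the peaks, against 12.4% and 12.0% of all peaks. TGANTCA was at 14 of 28 (interval 30.6 to 69.4%) and 15 of 32 (46.9%, 29.1 to 65.3), against 30.3% and 31.2%. AACNGGTT was at 0 of 28 peaks, which allows a share of up to 12.3%, and at 1 of 32, against 1.22% and 1.31% of all peaks. The median GC content of these windows was 56.7% in No gRNA and 52.7% in All gRNA, above the 48.3% and 47.8% of all peaks, and its part in the motif shares was not tested. RefSeq promoters, 250 bases before to 50 after a start, were matched for 8 of the 10 genes (10 promoters), and CAGGTG was in 4 of them, at DSP, DSG2, DSC2 and a second JUP start, where 20.6% of 34961 promoters had it. These matches are descriptions of sequence and do not show binding.

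Genes of related structures were described by the same counts. The other desmosome and plakin genes (DSC1, DSG1, DSG4, PKP4, EVPL, PPL, CDSN and KAZN) had 45 No gRNA and 42 All gRNA peaks. Of these, 16 (35.6%) and 12 (28.6%) were called in 1 library, against 24.7% and 23.8% of all peaks. Their 28 pairs had a median ratio of 0.959. The interval lay above 1 at 0 of these pairs and below 1 at 3, where 3.42% and 8.85% of all pairs did so. All 3 were at PPL, the gene of periplakin, with ratios of 0.580 (0.335 to 0.975), 0.505 (0.259 to 0.934) and 0.500 (0.337 to 0.728). DSC1 and DSG4, cadherins of differentiated epidermis and hair, had 0 peaks in either library, and DSG1 had 1 in each. The intermediate filament genes (KRT5, KRT6A, KRT8, KRT14, KRT18, KRT19 and VIM) had 18 and 19 peaks and 15 pairs with a median of 0.925. Of these 15 pairs, 1 had an interval above 1 and 1 below it, beside the same shares of all pairs. Both were at KRT8, 1 higher at 1.93 (1.10 to 3.44) and 1 lower at 0.326 (0.176 to 0.570).

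The 9 hemidesmosome genes, whose products fix epithelial cells to the basement membrane, had 93 and 91 peaks and 69 pairs with a median of 0.970, of which 3 had an interval above 1 and 8 below it, where 3.42% and 8.85% of all pairs did. The 9 tight junction genes had 46 peaks in each library and 26 pairs with a median of 0.887, of which 0 had an interval above 1 and 2 below it. Covered length was longer in All gRNA at 2 of the other desmosome and plakin genes, 1 of the filament genes, 3 of the hemidesmosome genes and 3 of the tight junction genes, beside 6 of the 10 desmosome genes. It was shorter at 4, 6, 6 and 5, beside 4 of the desmosome genes. Of all protein-coding genes with a peak in their window, 33% were longer and 66.8% shorter.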

How the data were processed

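ATAC-seq libraries of SUM159 cells, 1 per group (No gRNA and All gRNA), were compared. Per the study's methods and the labels, the authors used fastp for trimming, Bowtie2 for mapping to hg38 and MACS2, without a control, for the peaks of each library, after taking out duplicates, mitochondrial reads and excluded regions. The deposited lists give each peak's fold over the local background (a ratio), −log10 p and −log10 q, written by the authors' caller. The deposited score was not used.

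The pileup at each summit and its local background were solved from the deposited fold, (pileup + 1) / (background + 1), and the Poisson p, and a whole number was found for 100% of peaks. Depth was taken from the lowest backgrounds, 0.652 and 0.484, and corresponds to 8.80e+06 and 6.54e+06 read ends for the 200 bp window that the shortest peaks and the background steps of 0.02 point to, while the methods state 150 bp. Backgrounds above the lowest gave the read ends in 10 kb, which include those of the peak. Both ends of a fragment can be counted, so counts are not independent molecules. Recovery and intervals were checked on simulated data.

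Peaks were shared if they overlapped by at least 1 bp. Ratios have exact conditional binomial intervals, shares exact Clopper-Pearson intervals and pileups exact Poisson intervals, all 95%. Genes came from GENCODE release 44. Peaks at the main start, pairs whose interval excludes 1, and the strongest and the one-library peaks of each gene were described in full. The members, gene lists, motifs and alternatives were chosen with earlier results of these data known, and the study had described DSP and DSC2 transcripts in these cells. The 10 kb counts, call limits and shares among pairs close in mean pileup were added after seeing the data. Python 3.11.15, numpy 2.4.6, pandas 2.3.3, scipy 1.17.1 and matplotlib 3.10.9 were used.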

Additional observations from a re-analysis of the deposited data

How the results depend on the processing

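No paired analysis was possible because the conditions had 1 library apiece. The alternatives gave 43 values. A count moved if it changed by more than 1.5 times, a share if it left its interval, and a ratio became weaker if its interval came to include 1. By these rules 13 moved, 2 became weaker and 28 did neither. The summed ratio of the shared peaks, 0.867, became 0.934 under scaling by the median ratio, with an interval that includes 1. The share of No gRNA peaks with CAGGTG went from 21.4% to 39.3% when the whole peak was searched, inside the interval of the former. Windows of 4 kb around starts without the gene body left 9 No gRNA and 10 All gRNA peaks, 4680 and 5298 covered bp, and 0 No gRNA only and 1 All gRNA only peak (DSC2), fewer by construction. Windows of 50 kb gave 47 and 51 peaks. A −log10 q threshold of 10 on both lists left 20 All gRNA peaks, beside 20 of No gRNA, so the larger number in All gRNA did not hold, and with 10 in the counted list there were 0 No gRNA only and 1 All gRNA only peak. No gRNA only peaks numbered 5 when 50% overlap of both peaks was required and 5 when summits had to lie within 150 bp. All gRNA only peaks numbered 9 under each rule. The first rule split the widened pairs at JUP and PKP3, and the second split pairs at DSP and PERP whose summits lay further apart. The PERP promoter ratio of 0.569 lost its call under a 99% interval, while the JUP and PKP1 calls held. The bounds of the ratio interval were more than 2-fold apart at 22 of the 25 shared peaks, and leaving out a library was not possible with 1 per group.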
